A study of Homo sapiens and Mus musculus with 61 samples.

Results

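A pool of guide RNAs against the 5 hypersensitive sites of the human β-globin locus control region, named sgHS1-5, was deposited as 6 libraries, and replicates 5 and 6 of the pool are set here against its replicates 1 to 4. The 2 sets were chosen from the readout itself, because the share of target reads that fell on HS2 separated them. All 16890 listed regions of 300 bp were compared between the sets, and no test was made of that difference because the same libraries chose it. The 6 libraries are part of a series of 61 samples, of which 46 have columns in the tables used here and 15 were not analysed here. All 6 pool libraries and 4 libraries with sgGal4, a guide against a yeast sequence that serves as the non-targeting background, came from K562, a human chronic myeloid leukaemia line, that carried biotinylated dCas9 and was pulled down on streptavidin beads. Nothing in the labels says whether the numbered replicates were separate cultures, when they were made, or whether the pool held the same guides each time. The p-values given for a guide against sgGal4 therefore measure library-to-library spread alone, and that spread may be technical.

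The locus control region is a distal enhancer cluster that drives the globin genes in erythroid cells. HS2 and HS3 are its strongest classical enhancers, HS2 carries paired sites for AP-1-like factors such as NFE2, and HS5 lies at the outer border and binds CTCF. Inactive Cas9 searches DNA for the short motif NGG, the PAM, and then pairs its guide with the adjacent bases outward from the PAM. The bases next to the PAM, called the seed, carry most of the recognition, so DNA elsewhere in the genome that shares only the seed with a guide can also be bound.

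The HS2 region is printed because, of the 5 targets, it differed most between the sets. It spans chr11:5301969-5302268 (hg19, plus strand, sequence from GRCh37). The capitals mark TGACTCA, the reverse complement of the AP-1 motif TGAGTCA, which with both strands counted stands in 9.27% of all listed regions and in 14.6% of those on the list of higher regions described below.
HS2 listed region: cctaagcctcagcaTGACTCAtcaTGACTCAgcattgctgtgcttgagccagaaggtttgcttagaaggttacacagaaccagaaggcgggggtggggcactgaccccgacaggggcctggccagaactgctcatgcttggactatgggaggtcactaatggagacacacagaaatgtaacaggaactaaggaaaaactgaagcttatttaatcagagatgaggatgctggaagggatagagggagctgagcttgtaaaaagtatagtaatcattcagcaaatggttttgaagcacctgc

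Outside the β-globin cluster the regions of the 2 sets differed in which stretches of target DNA they shared, and 4 sites in the targets are printed for that reason. The sites were found from these data, as the 2 seeds of 10 bases before NGG that did not overlap each other and were met in most regions higher in replicates 5 and 6, and the same for the regions lower in them, within 200 bp of a target region. A seed on the other strand of HS3 site A, CCTCTACTCA, stood in 42 higher regions, more than the 16 of HS5 site, and was passed over because it overlaps HS3 site A. The guides' own sequences were not used here, so a site is a place in the target DNA and not a known guide. Each is printed 5′ to 3′ on the minus strand of chromosome 11, with the 10-base seed and the PAM in capitals.
HS3 site A, 5305921 to 5305943: gagagatagaCCATGAGTAGAGG
HS5 site, 5312559 to 5312581: tgcccccaccTTACAGGGACAGG
HS3 site B, 5306168 to 5306190: tttgggagcaGGAGTCTCTAAGG
HS4 site, 5309558 to 5309580: cccactcagcAGCTATGAGATGG

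HS3 site A and HS3 site B lie 247 bp apart. Both stand in the following plus-strand window, chr11:5305911-5306210, with the seed and PAM of each, read on the other strand, in capitals. HS3 site A lies inside the listed HS3 region and HS5 site inside the listed HS5 region, whereas HS3 site B and HS4 site lie outside or across the edge of theirs. Both sites from the lower regions thus came only from the search with 200 bp on either side, which was not planned.
HS3 window: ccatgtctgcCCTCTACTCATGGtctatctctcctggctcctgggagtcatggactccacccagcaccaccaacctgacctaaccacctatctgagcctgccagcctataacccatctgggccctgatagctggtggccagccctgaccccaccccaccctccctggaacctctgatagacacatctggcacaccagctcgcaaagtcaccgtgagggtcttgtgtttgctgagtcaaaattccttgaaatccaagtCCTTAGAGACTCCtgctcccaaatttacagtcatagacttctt

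The libraries differed in depth and in how alike they were. Reads recovered from the deposited levels and summed over the listed regions came to 210293 and 101221 in replicates 5 and 6, and to 196951, 348211, 20918 and 20447 in replicates 1 to 4. The sgGal4 libraries held 88378, 163456, 18353 and 18413 such reads. Replicates 3 and 4 of the pool were thus shallow, with 0 reads in 34.7% and 34.9% of the regions, against 4.49% and 11.2% in replicates 5 and 6. The difference between 2 libraries was measured as chi-square per degree of freedom over the regions, where 1 is sampling noise alone. It was 2.64 between replicates 5 and 6, between 1.05 and 1.70 for the 6 pairs among replicates 1 to 4, and between 2.49 and 6.38 for the 8 pairs across the sets. This measure grows with depth for the same difference in shares, so pairs compare only at like depth. Pairs of replicate 3 or 4 with a deeper library gave 2.49 to 2.87 across the sets and 1.46 to 1.70 within replicates 1 to 4, and pairs of deeper libraries gave 4.89 to 6.38 across the sets, 2.64 within replicates 5 and 6 and 1.05 within replicates 1 and 2. Replicates 1 and 2 were the closest pair, at 1.05, little above sampling noise, though the chi-square test still set them apart (p = 1.19e-05).

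HS2 was the target that set the libraries apart. It held 3058 and 5342 reads in replicates 5 and 6, against 176, 359, 9 and 16 reads in replicates 1 to 4 and 0, 5, 0 and 0 reads in sgGal4. As a share of the reads at the 5 targets, HS2 made up 34.0% and 39.0% in replicates 5 and 6, and 3.45%, 3.86%, 2.16% and 4.98% in replicates 1 to 4. As a share of all listed reads it was 1.45% and 5.28%, against 0.0894%, 0.103%, 0.0430% and 0.0783%. The ratio of the mean shares was 42.9. A count of 0 in sgGal4 allowed a share of up to 0.00339% in its replicate 1 and 0.0163% in its replicates 3 and 4. All intervals and limits of this kind cover counting error only.

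The other 4 targets differed far less. HS1 took 0.770% and 1.91% of listed reads in replicates 5 and 6, against 0.642%, 0.677%, 0.617% and 0.421% in replicates 1 to 4. HS4 took 0.767% and 1.57%, against 0.513%, 0.523%, 0.679% and 0.455%. At these 2 targets both libraries of the first set lay above all 4 of the second, with ratios of the mean shares of 2.27 and 2.16. HS3 took 1.04% and 3.79%, against 1.04%, 1.07%, 0.440% and 0.484%. HS5 took 0.250% and 0.985%, against 0.308%, 0.291%, 0.215% and 0.132%. The ranges of HS3 and HS5 overlapped. When only the reads at HS1, HS3, HS4 and HS5 were counted, the shares of all 4 overlapped between the sets. Replicate 6 had the highest share of listed reads at every target. Elsewhere in the cluster, the listed region nearest OR51V1, an olfactory receptor gene (chromosome 11, 5226065 to 5226364), held 9 and 11 reads in replicates 5 and 6, against 18, 35, 1 and 0 in replicates 1 to 4. The one nearest HBG1, a fetal γ-globin gene (5273371 to 5273670), held 7 and 0 reads, against 7, 17, 0 and 5, so both stood near the sgGal4 counts of 6, 8, 1 and 2 at the first and 7, 14, 0 and 2 at the second. All 5 targets together held 4.28% and 13.5% of listed reads in replicates 5 and 6, against 2.59%, 2.67%, 1.99% and 1.57% in replicates 1 to 4, and at most 0.0272% in any sgGal4 library.

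**Figure D1:**
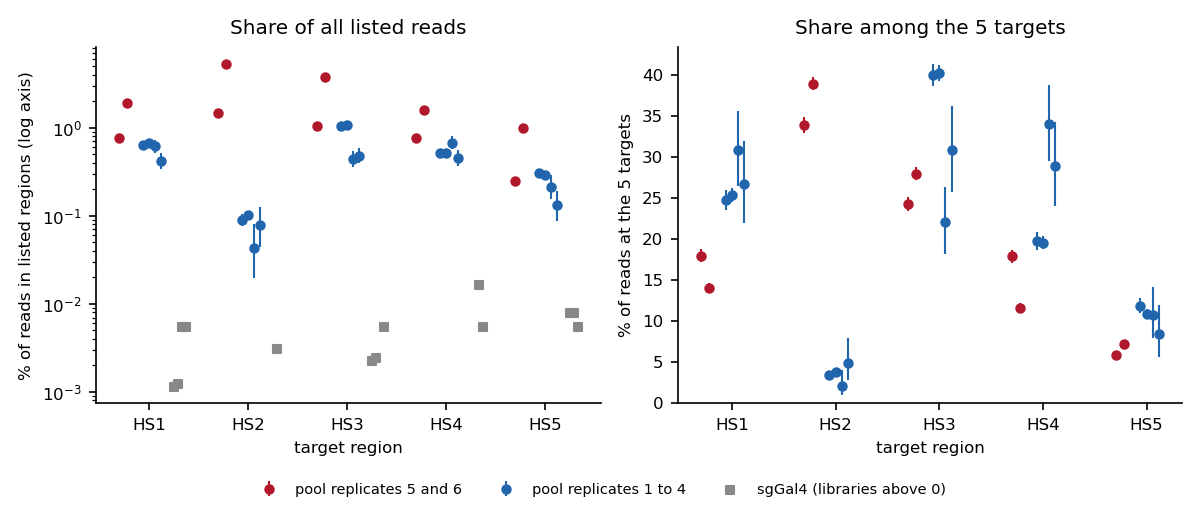
Share of reads at each target region per library, with exact Clopper-Pearson 95% intervals, as a percentage of all reads in listed regions on a log axis (left) and of the reads at the 5 targets (right). Red points are replicates 5 and 6, blue points replicates 1 to 4, and grey squares the sgGal4 libraries with at least 1 read. At HS2 the 2 red points stand at 34.0% and 39.0% of target reads and the 4 blue points between 2.16% and 4.98%.

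Many regions outside the cluster also differed. A region was called separated where both replicates 5 and 6 lay above, or both below, all of replicates 1 to 4, and the mean log2 values differed by at least 1. It also had to hold at least 30 reads over the 6 libraries, which 13909 of 16890 regions did. On the deposited level 2176 regions were higher in replicates 5 and 6 and 386 lower, which is 15.6% and 2.78% of those measured. On a second scale, log2(RPM + 1), where RPM is reads per 1e+06 listed reads, the majority turned, with 1307 higher and 2231 lower, or 9.4% and 16%. The lists used from here on hold the regions separated on both scales and outside the cluster. These numbered 1301 higher and 343 lower of 13902, or 9.36% and 2.47%. With a difference of at least 2 on both scales there were 622 higher and 52 lower, or 4.47% and 0.374%, and with at least 4 there were 8 and 5. The smaller of the differences on the 2 scales nearest to the limit of 1 was 1.01 inside and 0.9999 outside it among the higher regions, and -1.01 and -0.9997 among the lower. All 13902 regions had a median difference of 0.25 on the deposited level and 0.10 on log2(RPM + 1).

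The deposited scale itself moved with the split. Each library's levels followed a straight line in the log2 of reads plus 1, with slopes of 0.786 and 0.772 in replicates 5 and 6 and of 0.978, 1, 0.877 and 0.883 in replicates 1 to 4. A region with an equal share of reads in all 6 libraries and 30 reads in all would lie 0.58 higher in replicates 5 and 6 on that scale, and one with 1000 reads 0.20 higher. A region with 0 reads was placed at a level of 3.65 and 3.70 in replicates 3 and 4, against 2.13 and 3.05 in replicates 5 and 6. The lists at a difference of at least 1 may include regions set apart by scale and depth, and each of the 10 regions named in either direction differed by at least 3.

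Despite their small number, the higher regions took up much of the signal. The 1301 regions held 28.8% and 31.0% of the listed reads of replicates 5 and 6, against 6.96%, 7.22%, 4.27% and 4.18% in replicates 1 to 4 and 4.06% to 5.62% in sgGal4. In replicates 1 to 4 they thus lay near or somewhat above the sgGal4 share. The 343 lower regions held 0.528% and 0.331% in replicates 5 and 6, against 4.17%, 4.09%, 5.30% and 5.11% in replicates 1 to 4 and 2.69% to 4.08% in sgGal4. Here replicates 5 and 6 lay below sgGal4 as well. These values describe how the lists were chosen and test nothing.

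**Figure D2:**
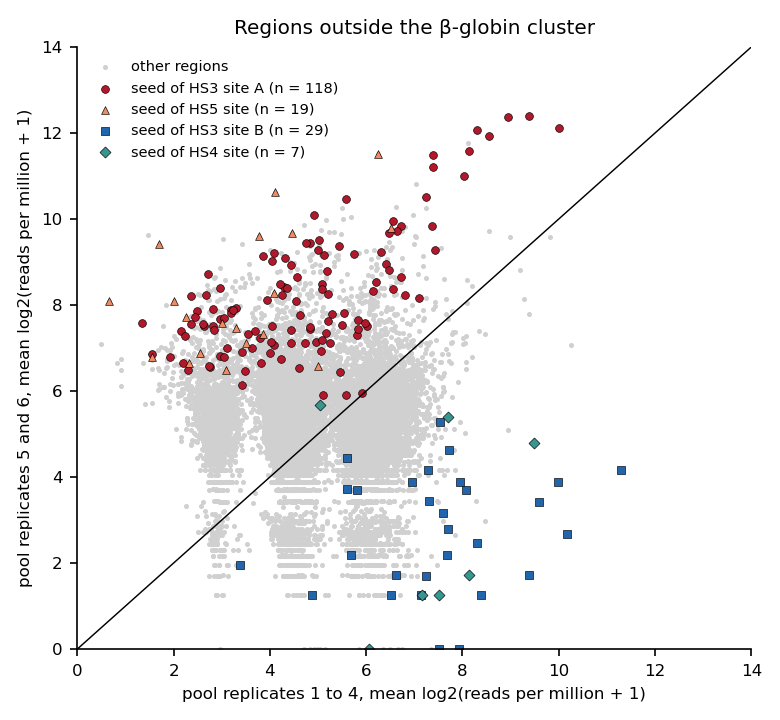
Each point is 1 of the 13902 regions outside the cluster with at least 30 reads, by its mean log2(RPM + 1) in replicates 5 and 6 (vertical) and in replicates 1 to 4 (horizontal), with the line of equal values. Coloured points hold a seed of 10 bases before NGG shared with 1 of the 4 sites. All 118 regions with the seed of HS3 site A had a positive level difference, and all 29 with the seed of HS3 site B a negative one. The sites were picked from the higher and the lower list.

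Among the 10 regions with the largest differences in favour of replicates 5 and 6, reads were nearly absent from replicates 3 and 4 and low in replicates 1 and 2. The first lay 18 bp from a start of SREK1, which encodes a splicing regulator (chromosome 5, 65435631 to 65435930). It held 115 and 117 reads in replicates 5 and 6, against 1, 3, 0 and 0 in replicates 1 to 4 and 2, 9, 0 and 4 in sgGal4. Its deposited level was 7.94 ± 0.59 (SD, n = 2) in replicates 5 and 6 and 2.80 ± 1.02 (SD, n = 4) in replicates 1 to 4, a difference of 5.15. The ranges did not meet, and sgGal4 lay with replicates 1 to 4.

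The second lay 267 bp from the start of PRSS35, a serine protease-like gene (chromosome 6, 84221836 to 84222135), with 92 and 107 reads, against 3, 2, 0 and 0 and, in sgGal4, 0, 2, 0 and 1. A region 676 bp from a start of HNRNPLL, a regulator of alternative splicing in lymphocytes (chromosome 2, 38830704 to 38831003), was the most heavily read of the 10. It held 391 and 469 reads, against 18, 25, 2 and 1 and, in sgGal4, 6, 17, 1 and 1. These 3 regions lay in promoters, here within 1 kb of a transcription start.

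The others were distal. Far from any gene on chromosome 19, with UQCRFS1 (the Rieske subunit of mitochondrial complex III) the nearest, a region at 29037080 to 29037379 held 312 and 168 reads, against 9, 13, 0 and 1. A region 10622 bp from APOC1, an apolipoprotein gene (chromosome 19, 45428598 to 45428897), held 32 and 49 reads, against 1, 0, 0 and 0. A region in an intron of ACSS2, which makes acetyl-CoA from acetate (chromosome 20, 33495604 to 33495903; nearest start GSS, glutathione synthetase), held 203 and 155 reads, against 3, 12, 3 and 1. In each of them both libraries of the first set exceeded every library of the second by more than 10 times in reads.

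An intron of DAPK2, a calmodulin-regulated kinase (chromosome 15, 64305862 to 64306161), held 89 and 144 reads in replicates 5 and 6, against 4, 11, 0 and 1 in replicates 1 to 4. An intron of ZNF385A, a zinc-finger gene (chromosome 12, 54772930 to 54773229), held 72 and 30 reads, against 1, 2, 0 and 1, with 0 reads in all 4 sgGal4 libraries. An intron of MCC (chromosome 5, 112640754 to 112641053) held 63 and 42 reads, against 0, 4, 3 and 0. The tenth, an intergenic region on chromosome 4 (27662018 to 27662317) far from STIM2, a calcium sensor of the endoplasmic reticulum, held 94 and 55 reads, against 5, 5, 0 and 1. The level differences of these 10 ran from 3.87 to 5.15.

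The 10 regions with the largest differences the other way were nearly empty in replicates 5 and 6. The first lay 45050 bp from RHOB, a small GTPase gene (chromosome 2, 20691735 to 20692034). It held 3 and 2 reads in replicates 5 and 6, against 426, 740, 67 and 54 in replicates 1 to 4 and 1, 2, 2 and 0 in sgGal4. Its level was 3.99 ± 0.40 (SD, n = 2), against 9.18 ± 0.34 (SD, n = 4), a difference of -5.19. Replicates 5 and 6 lay with sgGal4 here, and all 4 others, the shallow pair included, stood far above them.

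A region on chromosome 1 (221217218 to 221217517), 162957 bp from the homeobox gene HLX, held 0 and 4 reads in replicates 5 and 6, against 242, 408, 27 and 19 in replicates 1 to 4. An intron of PLCL1 (chromosome 2, 199009414 to 199009713) held 0 and 1, against 116, 193, 15 and 17, with 0 reads in every sgGal4 library. An intron of EIF4G3, a translation initiation factor gene (chromosome 1, 21284996 to 21285295), held 2 and 2, against 241, 376, 23 and 15. The pattern of the RHOB region thus recurred in all 3, with no overlap between the sets.

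A region 38415 bp from ACSF3, a mitochondrial fatty acid synthesis gene (chromosome 16, 89116218 to 89116517), held 2 and 1 reads, against 122, 219, 27 and 14. A region near MOGAT1, a monoacylglycerol acyltransferase gene (chromosome 2, 223598157 to 223598456), held 1 and 0, against 45, 83, 8 and 12. A region near PALMD (chromosome 1, 100038934 to 100039233) held 1 and 1, against 66, 138, 7 and 7. An intron of ABCC11, a membrane transporter gene (chromosome 16, 48245867 to 48246166), which the authors' deposited table tags as an off-target of the pool, held 0 and 1, against 72, 90, 7 and 4.

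In the remaining 2 of the 10, replicates 5 and 6 held no read at all. An intron of ZNF638 (chromosome 2, 71546292 to 71546591) held 93, 112, 2 and 5 reads in replicates 1 to 4, and a region near FAM180A (chromosome 7, 135513327 to 135513626) held 25, 65, 5 and 4. With 3 counts over both libraries as the limit of a count of 0, RPM was at least 37.5-fold lower in replicates 5 and 6 at ZNF638 and at least 17.5-fold lower at FAM180A. The level differences of the 10 lower regions ran from -5.19 to -3.20.

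**Figure D3:**
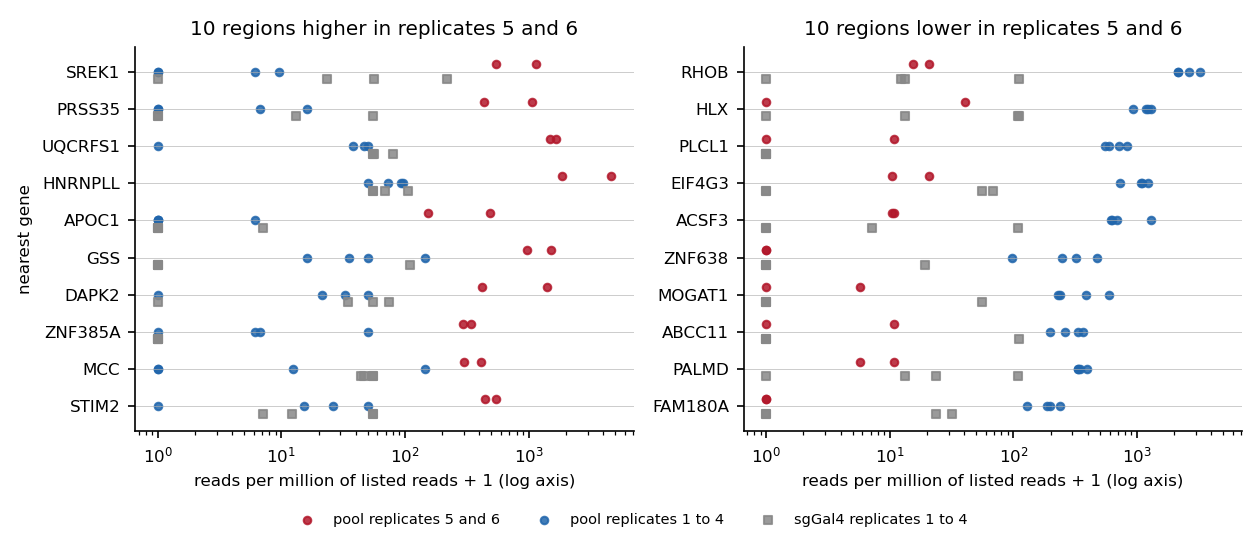
RPM plus 1, on a log axis, in each library for the 10 regions with the largest differences in each direction, named by the nearest gene. Red points are replicates 5 and 6, blue points replicates 1 to 4 and grey squares sgGal4. On the left the red points stand alone, and on the right the blue points stand alone while the red ones lie among the sgGal4 squares.

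The named regions of either direction shared different sites. The sites were picked from the lists that these regions lead, so the matches in part restate that choice. Of the 10 higher regions, 9 shared at least 8 unbroken bases next to a PAM with HS5 site, and 5 of them at least 10. Over all regions the shares were 0.971% and 0.137%. Of the 10 lower regions, 8 shared at least 10 with HS3 site B and 1 with HS4 site, against 0.209% and 0.0504% of all regions. Examples are printed with the unbroken stretch and the PAM in capitals, and all come from GRCh37.
APOC1 region, chr19:45428722-45428744, plus strand, like HS5 site: cccctggggCTTACAGGGACTGG
UQCRFS1 region, chr19:29037217-29037239, plus strand, like HS5 site: cagaagcctgTTACAGGGACTGG
DAPK2 region, chr15:64306010-64306032, minus strand, like HS5 site: gctggaccaCTTACAGGGACTGG
RHOB region, chr2:20691878-20691900, plus strand, like HS3 site B: aagaatcaCAGGAGTCTCTAGGG
HLX region, chr1:221217361-221217383, plus strand, like HS3 site B: ggtttgggaAGGAGTCTCTAAGG
MOGAT1 region, chr2:223598285-223598307, plus strand, like HS3 site B: tggagtAGCAGGAGTCTCTAGGG
ABCC11 region, chr16:48246016-48246038, minus strand, like HS4 site: acttCTCAGCAGCTATGAGAAGG

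Beyond the stretch in capitals these sequences matched their site little. Of the 20 bases before the PAM, the RHOB region matched 12, all in the unbroken stretch, the MOGAT1 region 16 and the ABCC11 region 17. The STIM2 and PALMD regions shared only 4 unbroken bases with any of the 4 sites and are not printed.

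The same held over the full lists. The 10-base seed of HS3 site A before NGG stood in 102 of the 1301 higher regions (7.84%), in 0 of the 343 lower ones and in 118 of all 13902 (0.849%), so 102 of the 118 regions that had it were on the higher list. Its 118 regions took 4.59% and 10.7% of the listed reads of replicates 5 and 6, against 1.40%, 1.48%, 0.789% and 0.646% in replicates 1 to 4 and 0.172% to 0.462% in sgGal4. Replicates 1 to 4 thus lay between the first set and sgGal4. The seed of HS5 site stood in 16 higher regions, 0 lower and 19 in all. Those 19 took 0.682% and 1.49%, against 0.0472%, 0.0393%, 0.0621% and 0.103% in replicates 1 to 4 and 0.0453% to 0.0923% in sgGal4. Here replicates 1 to 4 lay in or close to the sgGal4 range.

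The seed of HS3 site B behaved the other way. It stood in 0 higher regions, in 23 of the 343 lower ones (6.71%) and in 29 of all 13902 (0.209%). These 29 regions took 0.0257% and 0.0494% of the listed reads in replicates 5 and 6, against 0.993%, 0.974%, 1.29% and 1.02% in replicates 1 to 4 and 0.0260% to 0.114% in sgGal4. Replicates 5 and 6 lay within or below the sgGal4 range, and replicates 1 to 4 above it. The seed of HS4 site stood in 5 of the lower regions and in 7 in all, which took 0.0162% and 0.0119% in replicates 5 and 6, against 0.198%, 0.210%, 0.163% and 0.142% in replicates 1 to 4 and 0.0165% to 0.0327% in sgGal4. HS3 site A was picked as a frequent seed of the higher list and HS3 site B as one of the lower list. Their opposite sides in large part restate that choice. The read shares of HS3 itself overlapped between the sets.

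The larger the difference, the larger was the share of regions that held such a seed. The sites were picked from these same lists, so the shares describe the lists and test nothing. With 8 bases before NGG, a seed of HS3 site A or HS5 site stood in 228 of the 1301 higher regions (17.5%), in 199 of the 622 higher by at least 2 (32.0%), in 62 of 92 higher by at least 3 (67.4%) and in 8 of 8 higher by at least 4. Over all 13902 regions it stood in 2.17%. A seed of HS3 site B or HS4 site with 8 bases stood in 29 of the 343 lower regions (8.45%), in 24 of 52 (46.2%), in 11 of 13 (84.6%) and in 5 of 5, against 0.410% of all regions. Conversely, 1073 of the higher regions and 314 of the lower ones held neither of the seeds of their direction at 8 bases.

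Shorter seeds reached more of the higher list. The last 5 bases of HS3 site A before NGG stood in 743 higher regions (57.1%) and 9 lower ones (2.62%) of those lists, and in 1672 of all 13902. For HS3 site B the share hardly moved with length. In the 52 regions lower by at least 2 it was 36.5% with 6 bases and 34.6% with 11, and it dropped to 11.5% with 12. A match of this kind is a description of letters, not a bound site, and its part in the differences was not tested.

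**Figure D4:**
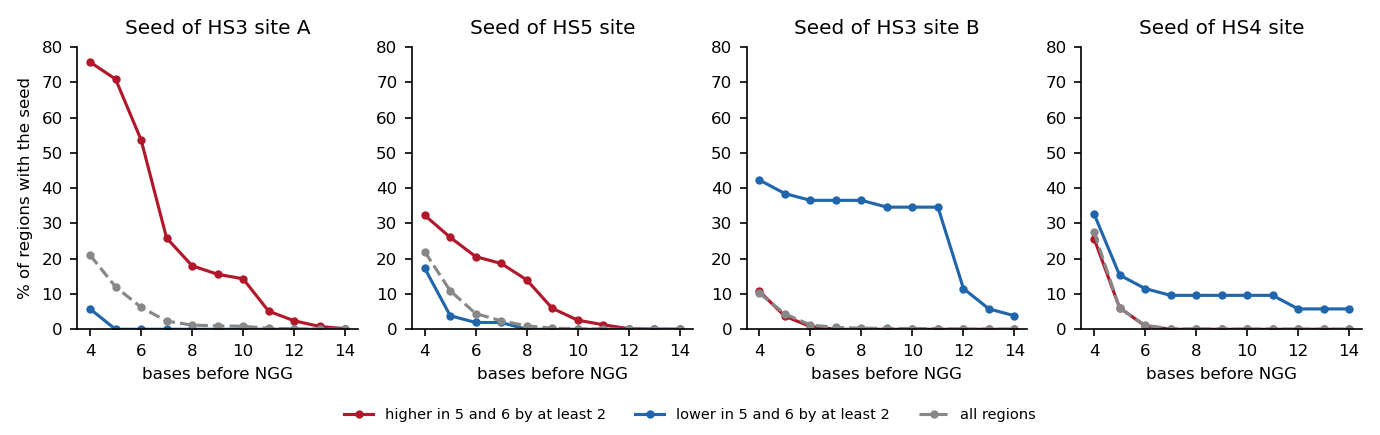
Share of regions that hold the last 4 to 14 bases of each site directly before NGG, on either strand. Red lines are the 622 regions higher in replicates 5 and 6 by at least 2 on both scales, blue lines the 52 lower by at least 2, and grey dashed lines all 13902 regions. The red line leads for HS3 site A and HS5 site, the blue line for HS3 site B and HS4 site. The first 2 sites were picked from the higher list and the other 2 from the lower list.

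The single-guide tables of the series are libraries that the split did not use. In them each guide was compared with the same 4 sgGal4 libraries, so the tables are given side by side and not against each other. The higher regions overlapped most with the table of sgHS3, the first guide to HS3, where 658 of the 1301 (50.6%) were also listed, with an overlap of at least 150 bp. Of all 13902 regions, 4078 were shared with that table. The higher ones had a median difference of mean log2 levels, sgHS3 minus sgGal4, of 2.14, against 0.33 for all 4078. Of the 658, 580 (88.1%) stood at 1 or more, against 30.1% of all shared regions, and 290 (44.1%) also had a limma adjusted p below 0.05, against 9.07%. For sgHS5, 280 of the higher regions (21.5%) were listed, a smaller share than the 6288 of all 13902 regions and the 56.6% of the lower list. Those 280 had a median of 1.40 against 0.50, and 58.6% at 1 or more against 26.7%. No region shared with that table passed the adjusted p, whether in the list or not.

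The excess was not particular to the guides of HS3 and HS5. The share of higher regions at 1 or more was above that of all shared regions in 16 of 16 tables, and their median was above in 12. For sgHS2-sg2 the median was 0.80 against -0.82, with 40 of 108 at 1 or more against 11.9%, and for sgHS1-sg2 it was 0.87 against 0.09, with 44.1% against 15.8%. For 2 guides outside the locus control region, sg3'HS1 and sgHBD-1kb, the medians were 1.01 against -0.21 and 1.02 against -0.17, with 50% against 20.4% and 50.6% against 22.2%. Of these 4 tables only that of sgHBD-1kb had higher regions past the adjusted p, 20.9% against 6.9%, where all shared regions gave 0.274% for sgHS2-sg2, 0.489% for sgHS1-sg2 and 0.0301% for sg3'HS1. Only regions listed in both tables could be counted, from 3.07% of the higher list for sgHBB to 50.6% for sgHS3. All the tables share their sgGal4 libraries, in which the higher regions had a median of their mean RPM of 31.5, against 50.6 for all regions. A region low in sgGal4 may have been listed for a guide only where that guide was high. The excess may thus come from the listing or from that lower background, and neither part was tested.

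The share of lower regions at 1 or more was above that of all shared regions in 1 of 16 tables, and the median of their mean RPM in sgGal4 was 70.2. For sgHS3, 119 of the 343 were listed, with a median of -0.58, and 0.840% stood at 1 or more, against 30.1%. For sgHS4, 148 were listed, with a median of -0.11 and 5.41% at 1 or more, against 11.7%, and 1 of them (0.676%) also passed the adjusted p, against 0.0233% of all shared regions. Of the regions lower by at least 2, 20 were listed for sgHS4, 25% of them at 1 or more and with a median of 0.40 against 0.21, and 14 for sgHS1-sg2, of which 2 (14.3%) were called, against 0.489%. Of the lower regions, 3 (0.875%) had a difference of at least 1 and a limma adjusted p below 0.05 in at least 1 of the 10 single-guide tables for HS1 to HS5, as against 290 (22.3%) of the higher ones and 2.97% of all regions. For the lists with a difference of at least 2 these numbers were 209 of 622 (33.6%) and 3 of 52 (5.77%). All 290 were called in the sgHS3 table, and the 3 in those of sgHS1-sg2 and sgHS4. In 2 of the 10 tables, sgHS2-sg2 and sgHS3-sg2, the guide has 1 library, which limma assumes to vary like the sgGal4 libraries. Leaving these 2 out could not change 290 and 3, which came from other tables, and gave 2.89% of all regions.

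Single regions could be followed in the reads of single guides. Of the 10 named higher regions, 8 were listed in the sgHS5 table, which shared 6288 of all 13902 regions. The region near UQCRFS1 held 965, 280 and 158 reads in the 3 sgHS5 libraries, and the one in ACSS2 held 380, 76 and 43. Neither passed the test against sgGal4, with limma adjusted p of 0.0582 for the first and, at a difference of 5.60, 0.133 for the second. The SREK1 region held 301, 58 and 32 reads there. The STIM2 region was listed in the sgHS3 table instead, with 28, 6 and 4 reads, and the HNRNPLL region in none. Of the 10 lower ones, only 2 were listed in any single-guide table. The ABCC11 region held 2155 and 952 reads in the 2 sgHS4 libraries (difference 7.55, limma adjusted p = 0.111) and the PALMD region 144 and 69 in those of sgHS1-sg2 (4.16, limma adjusted p = 0.0115). The RNF44 region (chromosome 5, 175965132 to 175965431, 879 bp from its start), chosen here as the most read lower region with the HS4 seed, held 5 and 3 reads in replicates 5 and 6, against 151, 329, 14 and 11 in replicates 1 to 4. It held 4239 and 2255 reads in sgHS4 (difference 7.81, limma adjusted p = 0.00745).

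The 4 seeds were unevenly spread over the tables of the other guides. The seed of HS3 site A stood in 121 regions of the sgHS3 table, with a median difference from sgGal4 of 2.75 against 0.17 for all its regions, and in 0 regions of the 15 other tables. The seed of HS5 site stood in 46 regions of the sgHS5 table and in no other. The seed of HS4 site stood in 158 regions of the sgHS4 table, with a median of 2.55 against 0.33, and in 1 of the sgHS5 table. The seed of HS3 site B, which marked most of the named lower regions, stood in 1 region of the sgHS2 table, at 0.17, and in 0 of the 15 others, the tables of both HS3 guides included.

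**Figure D5:**
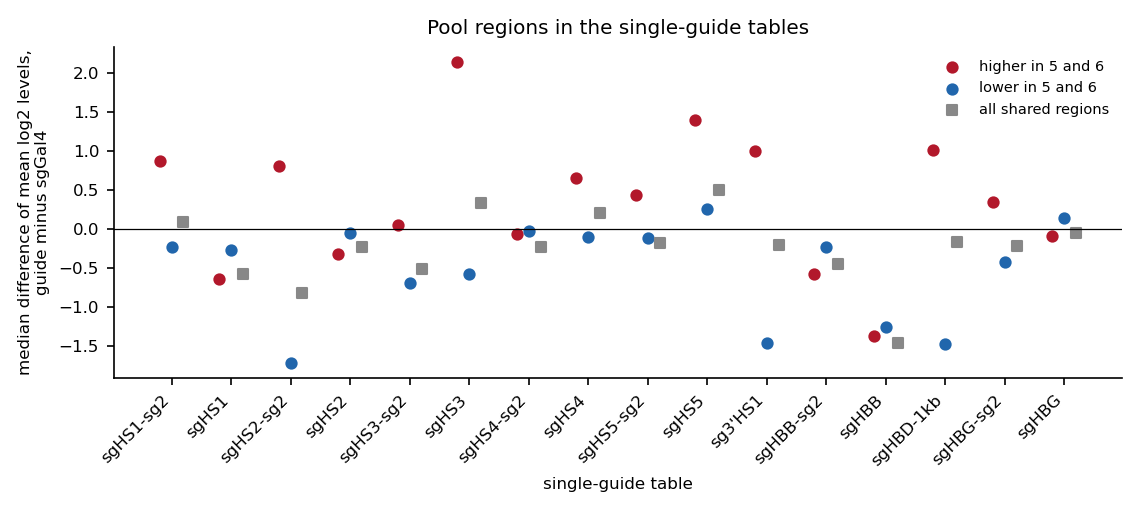
Median difference of mean log2 levels, guide minus sgGal4, in each single-guide table for the regions higher in pool replicates 5 and 6 (red), those lower in them (blue) and all regions the table shares with the pool (grey squares). The red point stands highest in the sgHS3 table, at 2.14, and lies above the grey square in 12 of 16 tables.

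Against sgGal4, the 6 pool libraries together gave few calls. The limma fit over all 16890 regions called 9 higher at an adjusted p below 0.05 (0.0533%) and 0 lower, with 816 lower at an unadjusted p below 0.05 and 96 lower in limma on log2(RPM + 1). The 9 were the 5 targets and 4 regions that were neither on the higher nor on the lower list, and 0 regions of either list were called. The gap between the sets that put a region on a list counts in this fit as spread within the pool. Listed regions could therefore hardly pass, and the lack of calls does not show that they lay at the sgGal4 level. HS2 stood 6.27 above sgGal4 with a limma adjusted p of 0.0387, the weakest of the 5 targets. RHOB, the region with the largest negative difference, stood 4.32 above sgGal4 over all 6 libraries but with a limma adjusted p of 0.120. The count of calls was 1353 without sgGal4 replicate 3 and 1560 without its replicate 4, the shallow controls. On log2(RPM + 1) the fit called 130 regions higher than sgGal4. Of these, 21 were on the higher list (1.61% of it) and 2 on the lower list (0.583%), against 0.791% of all 13902 regions.

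The region with the highest mean pool level outside the cluster was not separated. It lies on chromosome 6 (142942825 to 142943124), 215209 bp from HIVEP2, a zinc-finger transcription factor gene, and shares 14 unbroken bases with HS3 site A. It held 520 and 814 reads in replicates 5 and 6, against 491, 859, 7 and 11 in replicates 1 to 4 and 1, 4, 1 and 1 in sgGal4, and stood 5.28 above sgGal4 with a limma adjusted p of 0.0346. The ranges of the 2 sets overlapped there, though the mean level was 1.75 higher in replicates 5 and 6. In RPM the region stood at 2473 and 8042, against 2493, 2467, 335 and 538 in replicates 1 to 4. Of the 7 regions that the authors' deposited table tags as off-targets of the pool, 3 were higher in replicates 5 and 6 and 1, ABCC11, was lower. Among all 13902 regions 9.36% were higher and 2.47% lower. The 7, named after their values were seen, are too few to set against that. The intron of CORO1C, an actin-binding protein gene, held 111 and 74 reads, against 27, 54, 0 and 1. The region nearest LENG1 held 93 and 100, against 31, 54, 3 and 0, and the intron of PTPRD, a receptor tyrosine phosphatase gene, held 31 and 76, against 18, 31, 2 and 2. All 3 shared at least 11 unbroken bases with HS3 site A.

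Regions near genes of the erythroid programme were too few to set against the background of 9.36% higher and 2.47% lower. Regions within 10 kb of a start were listed for 6 of 17 erythroid regulators, and of their 8 regions with at least 30 reads 1 was higher and 1 lower, with a median level difference of -0.02 against 0.25 for all regions. The higher one was 907 bp from a start of LDB1, the bridging factor of the GATA1 and TAL1 complex, with 56 and 19 reads, against 5, 6, 1 and 0. The lower one was near BACH1, a repressor that competes with NFE2, with 1 and 0 reads, against 40, 51, 2 and 7. The sgGal4 libraries held 32, 58, 2 and 2 reads at BACH1, so replicates 5 and 6 lay below the background there. Replicates 1 and 2 of sgGal4 had 88378 and 163456 listed reads in all, against 196951 and 348211 in replicates 1 and 2 of the pool. For their depth, these 2 pool libraries thus also lay below their sgGal4 counterparts. For the erythroid membrane, haem and iron genes, 0 of 6 regions were separated, for CTCF, YY1 and cohesin genes 0 of 3, and the α-globin genes had no listed region.

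Of 4 regions at promoters often carried by expression vectors, 1 was lower. It lay at EEF1A1, a translation elongation factor gene, with 42 and 9 reads, against 89, 232, 49 and 66, and its sgGal4 libraries held 26, 46, 278 and 59. At PGK1, a glycolytic enzyme gene, the reads were 50 and 0, against 9, 14, 2 and 1, so replicates 5 and 6 disagreed with each other there. Among 48 regions at ribosomal protein genes 1 was higher, near RPL14, and none lower. The intervals around BCR and ABL1, which are amplified in K562, had 0 of 15 and 1 of 14 regions higher and none lower. These shares may be read beside 9.36% higher and 2.47% lower among all regions.

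The 2 lists differed somewhat in where they lay. Promoters held 364 of the 1301 higher regions, 13.4% of the lower ones and 27.3% of all regions. The lower ones were more often in exons outside promoters, at 9.62%, against 2.77% of the higher and 3.75% of all. The median GC content was 52% for the higher, 50.7% for the lower and 54.3% for all regions. By chromosome the higher share was largest on X, with 35 of 167 regions higher and 1 lower. The other chromosomes lay between 6.94% and 12.8% higher.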

How the data were processed

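Chromatin pulled down with biotinylated dCas9 (CAPTURE-ChIP-seq) was measured in K562 libraries. The authors deposited log2 levels for listed regions in 17 tables. Per the submitters' processing notes, Bowtie 1.0.0 and Picard were used with hg19. How peaks were called and levels normalised is not given in the sources used here.

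Levels in each library followed a straight line in log2(reads + 1), from which whole reads were recovered for 100% of values within 0.01 reads. Shares were taken of the reads in listed regions, with exact Clopper-Pearson 95% intervals. Guides were compared with sgGal4 within each table by limma 3.58.1 (R 4.3.3) on the deposited log2 levels, with Benjamini-Hochberg adjustment over the table and a threshold of 0.05. The limma fit and the call of separated regions were tested on simulated data. Seeds were searched before NGG on both strands of hg19.

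Members, sets and gene lists were chosen with earlier results of these data known. The named regions are the 10 in each direction with the largest value of the smaller of the 2 scales' differences, plus the targets and other cluster regions, the region with the highest pool mean outside the cluster, and regions within 10 kb of a start of a listed gene. RNF44 and the authors' tagged off-targets lie outside this rule and were named after their values were seen. Alternatives covered the read filter, scale, pseudocount, threshold, overlap, seed length and each library left out. The 15 samples with no column in these tables were not analysed here.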

Additional observations from a re-analysis of the deposited data

Results flagged for a closer look

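Replicate 6 of the pool stood apart from the other 5 pool libraries in its share of listed reads at every target. It held 1.91% at HS1, 5.28% at HS2, 3.79% at HS3, 1.57% at HS4 and 0.985% at HS5, each far above the next library. At the HNRNPLL and the EIF4G3 region, sgGal4 replicate 1 had a deposited level of 3.98, below the other sgGal4 libraries at the first and above them at the second. In RPM it held 67.9 at both, against 104, 54.5 and 54.3 in replicates 2 to 4 at HNRNPLL and 55.1, 0 and 0 at EIF4G3. A count of 0 in replicates 3 and 4 was placed at 3.68 and 3.64, so these 2 flags rest on the scale at low reads. These 7 were flagged among 47 groups of 4 or 6 libraries. Chance flags about 1 in 20 groups that are independent and not chosen by their values, and these groups were neither.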

How the results depend on the processing

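The number of regions higher in replicates 5 and 6, 2176 on the deposited level, was 404 with at least 100 reads, 1307 on log2(RPM + 1), 1304 with a pseudocount of 5, 1439 with RPM taken outside the cluster, 686 with a difference of at least 2, 748 with ranges at least 1 apart, 1302 on both scales and 623 on both by at least 2. It lay between 2253 and 2822 with any 1 replicate left out. The number lower, 386, was 48, 2231, 2111 and 2004 under the first 4 of these, 57 by at least 2, 75 with ranges at least 1 apart, 52 on both scales by at least 2 and 765 after the median difference of all regions was taken off. It lay between 462 and 1069 with 1 replicate left out, the highest without replicate 5, and was 806 without replicate 6. Of the separated regions 84.9% were higher on the deposited level, 36.9% on log2(RPM + 1) and 66.9% after centring. The both-scale counts, like those with replicates 1 and 2 as 1 library or without replicates 3 and 4, were alternatives chosen after seeing the data. The cause of these changes was not tested.

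The log2 ratio of the mean shares, with 1 replicate left out, lay between 0.39 and 1.69 for HS1, 4.21 and 6.07 for HS2, 0.45 and 2.32 for HS3, 0.50 and 1.54 for HS4, and 0.081 and 2.06 for HS5, each lowest without replicate 6. On the deposited level the difference was 4.29 for HS2 and 0.67 for HS4.

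The 9 limma calls of the pool against sgGal4 became 226 on log2(RPM + 1), 180 with a trend and 5 with replicates 1 and 2 averaged, and between 5 and 1560 with 1 library left out. With the replicate number as a block there were 8. Deviations of same-numbered pool and sgGal4 libraries were nearly uncorrelated (correlations of -0.01 to 0.05). With a median of 1 read per region in replicates 3 and 4, this cannot tell whether same-numbered libraries were made together. Of the higher regions called in a single-guide table, 290, there were 9 with exact coordinates and 76 on log2(RPM + 1). Of the lower, 3, there were 0 with exact coordinates and 6 with the other guides' tables added. Regions with any target seed, 175 higher and 10 lower, became 574 and 97 with 8 bases and 29 and 1 with 12. With 10 bases these were 13.5% of the higher and 2.92% of the lower list, against 3.91% of all 13902 regions. With 8 bases they were 44.1% and 28.3%, against 32.02%, and with 12 they were 2.23% and 0.292%, against 0.604%. The lower list thus lay below all regions at each length. The search with 200 bp on either side was not planned. It gave 44 of 343 lower regions at 10 bases, against 973 of all 13902, so there the lower list lay above. None of 147 alternatives for the named regions turned a direction. For the 10 regions named in each direction this was fixed by their choice. Their ranges did not meet on either scale, so neither the other scale nor leaving out 1 library could turn them. Depth limits the values of replicates 3 and 4 most.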
